A study of Mus musculus with 58 samples.

Results

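Of the 16461 inserts in this INSERT-seq library, 636 (3.86%) carry an intron of 95 to 119 nt, as judged from the lengths of the reference sequences on which the RNA reads were counted. INSERT-seq integrates a pool of short sequences behind a promoter and counts, for each sequence, the RNA it yields and the genomic DNA (gDNA) copies it has. Every one of the 636 inserts is 175 nt long and has exactly 1 additional spliced reference, which lacks an inner stretch. The inserts were chosen by having exactly 1 spliced reference and by the length of that stretch. Whether measured RNA entered the choice through the spliced references is not known, as their origin is not stated. They are 26.5% of the 2404 inserts with any spliced reference and 28.2% of the 2259 with exactly 1. The median length removed was 106.5 nt, and the spliced references were 56 to 80 nt long. In steps of 5 nt upward from 95 nt there were 126, 142, 124, 144 and 100 inserts. At the lower limit 28 inserts lose 95 nt and 25 lose 94 nt, and at the upper limit 15 lose 119 nt and 23 lose 120 nt. The removed length is spread evenly over the reading frames, since it leaves a remainder of 0, 1 and 2 on division by 3 in 205, 217 and 214 inserts.

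Splicing cuts an intron out between a donor site and an acceptor site and joins the flanking exons, often while RNA polymerase II is still transcribing. Short introns can be recognised as a unit by the spliceosome, and an intron near a promoter is known to raise the steady-state RNA of many mammalian genes. Antisense transcripts from the upstream side of promoters and many long non-coding RNAs are, by contrast, poorly spliced and are degraded in the nucleus by the RNA exosome, of which RRP40 (EXOSC3) is a subunit.

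The library was read in F121-9 cells, a hybrid mouse embryonic stem cell line. At the 14Rik site, in wild-type F121-9 cells, inserts lay 102 nt past the transcription start of 4930461G14Rik, a gene of a long non-coding RNA, on the CAST allele (chromosome 9, 58455173 to 58469623, GRCm38), and total RNA was read in 3 screens. At the Pou5f1 site they lay 157 nt into the antisense transcript that leaves the promoter of Pou5f1, which encodes the pluripotency factor Oct4 (chromosome 17, 35506032 to 35510777, GRCm38). All cells with the Pou5f1 site, those with siRNA included, carry on the 129 allele an mKate2 reporter just beyond the inserts and TagBFP2 at the C terminus of Oct4, so the library was read on that modified allele of a single line. Total (steady-state) RNA of untreated Pou5f1 cells was read in screens 1 to 4, chromatin-associated RNA in screens 2 and 3, and nascent RNA labelled in a 15-minute nuclear run-on in screens 4 and 5. Total RNA at Pou5f1 was also read 48 h after 40 nM of a pool of siRNAs against EXOSC3 (siRRP40, cultures A to C) or of a non-targeting siRNA (siNT, cultures A to C). Cells with the Pou5f1 library were sorted into 6 bins in each of 2 sort screens, beside 3 unsorted gDNA libraries, and the labels give neither the colour nor the limits of the bins. Reverse transcription started 287 nt (14Rik) or 221 nt (Pou5f1) downstream of the inserts. The level of the targeted EXOSC3 RNA was not measured by these libraries, so the knockdown was not checked here.

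The 17 RNA libraries held 2665226 to 94099800 reads on inserts, the gDNA libraries beside them 1991728 to 48334996, the 3 unsorted libraries 1875834 to 14124056 and the sorted bins 507182 to 7437828. Reads of the 636 inserts took 6.01% to 10.2% of the total RNA libraries and 3.7% to 4.45% of the run-on and chromatin libraries, against 2.8% to 3.51% of the gDNA libraries. The files name inserts by number alone, with neither gene nor position nor sequence, so no sequence is shown and the ends of the removed stretch were not checked for splice-site letters. The origin of the spliced references is not stated in the labels. If reads of these RNA libraries served to define them, high levels or shares of the class are no independent evidence.

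Most inserts of the class had a spliced read in some library, which does not show how much of their RNA was spliced. Of the 636, 621 had at least 1 spliced read in some RNA library and 255 had one in each of the 17. The other 15 had none in any RNA library. Among the 24 inserts with reads but no spliced read in Pou5f1 total RNA, those with the most reads were sequence_02856, with 332, 2512, 2892 and 10424 reads in screens 1 to 4, and sequence_04074, with 204, 916, 1534 and 9452. Neither had a spliced read in any of the 17 libraries, although a spliced reference exists for each.

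In steady-state RNA at Pou5f1, the inserts with introns of 95 to 119 nt had more RNA reads for their gDNA reads than the typical insert of the library. Spliced RNA gives a shorter product than unspliced RNA or gDNA, and whether that affects the counts was not tested. The level used throughout is the log2 of an insert's RNA reads over its gDNA reads of the same screen, after TMM scaling and with a prior count of 2. This scaling places the typical insert near 0, which a ratio of plain read shares would not do. RNA counts both spliced and unspliced reads. For the 370 inserts that reached 50 reads in each gDNA library, the median level was 1.22, 0.88, 0.85 and 1.17 in screens 1 to 4, a mean of 1.03 ± 0.19 (SD, n = 4). For 9224 inserts without a spliced reference it was -0.13, -0.16, -0.22 and -0.27 (-0.19 ± 0.06). The lowest screen of the intron inserts stood above the highest screen of the others, and the gap per screen was 1.22 ± 0.20. The spread among the intron inserts themselves was wide, with quartiles of -0.02 and 2.54 in screen 1.

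Insert by insert, 182 of the 370 had more RNA than gDNA after TMM scaling and 29 had less (edgeR quasi-likelihood test over all 10650 inserts tested, Benjamini-Hochberg adjusted p under 0.05). That is 49.2% and 7.84% of the intron inserts, against a background of 23.1% higher and 17.5% lower over all inserts tested. The median log2 fold change of the intron inserts was 0.97 and that of all inserts -0.12. The other 266 intron inserts had too few gDNA reads to be tested. With library totals in place of TMM scaling, the median of all inserts shifted to -0.69 and the split of the intron inserts to 152 higher and 59 lower, with a median of 0.41.

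The highest levels belonged to inserts whose RNA was almost wholly spliced. For sequence_13749, which loses 115 nt, the level was 3.77, 4.64, 5.05 and 4.54 in screens 1 to 4, and 99.3%, 100%, 100% and 99.8% of its reads were spliced (log2 fold change against gDNA 4.51, SE 0.32, adjusted p = 8.61e-05, edgeR). For sequence_12351, which loses 112 nt, the level was 3.97, 4.78, 3.61 and 5.29, with 96.0%, 96.1%, 97.2% and 98.4% of reads spliced (4.42, SE 0.37, adjusted p = 0.000176, edgeR). All 4 screens of both inserts lay far above 0. On unspliced reads alone the direction turned, to -5.60 (adjusted p = 0.0176) for sequence_13749 and -0.56 (adjusted p = 0.257) for sequence_12351, by edgeR.

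At the other end stood sequence_08818, which loses 99 nt. It had 8, 90, 0 and 660 RNA reads in screens 1 to 4, against 136, 618, 812 and 4410 gDNA reads. Its level was -3.73, -2.90, -9.22 and -3.76, so every screen was low and screen 3 held no read (log2 fold change -4.43, SE 1.20, adjusted p = 0.0263, edgeR). This call was lost without screen 1, 2 or 4 (adjusted p = 0.0771, 0.0519 and 0.0815, edgeR). Next was sequence_11170, which loses 117 nt (-2.86, SE 1.03, adjusted p = 0.0478, edgeR), whose call was lost without screen 1, 2 or 4 (adjusted p = 0.244, 0.105 and 0.0952) and when the screen was not a block (adjusted p = 0.105).

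Spliced reads made up most of the steady-state RNA at some inserts and almost none at others. The spliced share of an insert is its spliced reads over all its reads. Over 543 intron inserts with at least 20 reads in every Pou5f1 total RNA library, the median share was 55.9%, 36.0%, 49.5% and 67.6% in screens 1 to 4 (52.2% ± 13.2, SD, n = 4), and the quartiles in screen 1 were 5.11% and 95.5%. The median depends on the read minimum, and with 200 reads or more in every library it was 83.9%. By its mean share over the screens, an insert was at 90% or more in 155 cases (28.5%), at 50 to 90% in 124, at 10 to 50% in 111, at 1 to 10% in 110 and under 1% in 32, and 11 had no spliced read. The class is uneven by insert number, whose meaning the files do not give. Of the 636 inserts, 354 are numbered 12001 to 14000. Those of them with enough reads had a median share of 84.1% ± 5.98 (SD, n = 4). The others with enough reads had 9.23% ± 3.38. A total of 44 inserts had a mean over 99%. Of these sequence_12316, which loses 107 nt, had the most reads, with 2148, 3892, 4804 and 118788 in screens 1 to 4, of which 99.9%, 100%, 100% and 99.8% were spliced.

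Shares differed between the length classes. In Pou5f1 total RNA, inserts losing 95 to 119 nt lay between those losing 120 nt or more (median 73.5% ± 17.0, SD, n = 4) and those losing 70 to 94 nt (42.4% ± 8.88), and inserts losing under 70 nt had a median share of 0%. In siNT cultures the medians were 63.6% ± 3.58 for the inserts losing 95 to 119 nt, 91.3% for 120 nt or more, 54.6% for 70 to 94 nt and 0% for under 70 nt (n = 3). The median levels followed this order at 14Rik and in siNT cultures, but neighbouring classes above 70 nt lay within their spread at 14Rik, as did 95 to 119 nt and 70 to 94 nt in siNT cultures. At 14Rik the median level was 1.34 ± 0.18 for 95 to 119 nt, 1.48 ± 0.26 for 120 nt or more, 1.22 ± 0.18 for 70 to 94 nt and 0.26 ± 0.12 for under 70 nt (SD, n = 3). In siNT cultures it was 1.20 ± 0.08, 1.43 ± 0.10, 1.18 ± 0.09 and 0.59 ± 0.04 in the same order. In untreated Pou5f1 total RNA the median level was 1.03 ± 0.19 for 95 to 119 nt, 1.03 ± 0.46 for 120 nt or more and 0.98 ± 0.12 for 70 to 94 nt, which do not differ beyond the spread between screens, and 0.39 ± 0.06 for under 70 nt. The share of inserts called higher at Pou5f1 was 49.2% for 95 to 119 nt, 44.9% for 120 nt or more, 50.2% for 70 to 94 nt, 33.1% for under 70 nt and 19.7% for inserts without a spliced reference.

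Within the class, removed length went only weakly with the spliced share and with the level. By steps of 5 nt from 95 nt upward, the median share in Pou5f1 total RNA was 42.9% ± 9.29, 40.1% ± 13.2, 53.7% ± 15.1, 55.5% ± 14.3 and 61.6% ± 16.3 (SD, n = 4), so neighbouring steps overlap. At 14Rik the same steps had 37.6% ± 1.50, 30.4% ± 5.91, 55.9% ± 3.40, 57.9% ± 6.14 and 64.2% ± 9.56 (SD, n = 3), and in siNT cultures 46.4% ± 3.71, 42.5% ± 12.6, 69.7% ± 1.51, 67.0% ± 4.85 and 77.4% ± 6.91. The inserts losing 105 nt or more had the higher medians in each of these groups. The level at Pou5f1 followed another order, with 0.94 ± 0.38, 0.72 ± 0.17, 1.31 ± 0.36, 1.43 ± 0.43 and 0.48 ± 0.05 by step. Over all 17 libraries, Spearman's rho of share with removed length ran from 0.063 to 0.149 across inserts, and over the Pou5f1 total RNA screens rho of level with removed length ran from -0.001 to 0.075 (370 inserts). It was 0.113 and 0.115 in run-on RNA (367 inserts) and 0.073 to 0.124 at 14Rik (544 inserts). These are descriptions across inserts that share their libraries.

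High levels went with high spliced shares. Sorting inserts by their share after siNT and reading their level in untreated cells, the median level at Pou5f1 was 0.37 ± 0.10 for 70 inserts under 1% spliced, 0.05 ± 0.10 for 50 inserts at 1 to 10% and 0.26 ± 0.11 for 59 inserts at 10 to 50% (SD, n = 4). It was 1.20 ± 0.17 for 70 inserts at 50 to 90% and 2.66 ± 0.45 for 107 inserts at 90% or more. Of the groups under 50%, 24 of 70 (34.3%), 9 of 50 (18%) and 15 of 59 (25.4%) were called higher than gDNA. At 50 to 90% it was 39 of 70 (55.7%) and at 90% or more 94 of 107 (87.9%). In the same order 8, 6, 11, 2 and 1 were lower. Over all inserts tested 23.1% were higher and 17.5% lower. The groups at 1 to 10% and 10 to 50% did not stand clearly above that share. Across 356 inserts, Spearman's rho of the level with the siNT share was 0.512 to 0.609 in the 4 screens. The untreated and siNT libraries come from separate cultures with the same modified allele and the same primer.

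Unspliced RNA ran the other way. Counted on unspliced reads alone, the median level of the inserts at 90% or more was -1.96 ± 0.25, against 0.33 for those under 1% and -0.17 ± 0.30 for those at 50 to 90%. Over all 370 intron inserts it was -0.55 ± 0.12, and the gap to inserts without a spliced reference was -0.36 ± 0.09 (SD, n = 4). This count omits reads at inserts with a spliced reference and at no others.

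On chromatin and in nascent RNA the excess was smaller. In chromatin-associated RNA the median level of 367 intron inserts was 0.34 and 0.47 in screens 2 and 3 (0.41 ± 0.10, SD, n = 2), with a gap of 0.54 ± 0.12 to inserts without a spliced reference. In run-on RNA it was 0.45 and 0.37 in screens 4 and 5 (0.41 ± 0.06), with a gap of 0.42 ± 0.07. Both gaps were positive in each library. On unspliced reads alone they were 0.03 ± 0.18 on chromatin and -0.03 ± 0.08 in run-on RNA, which is within their spread of 0.

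Few single inserts were called in these kinds of RNA, which were tested in a fit of all 13 untreated Pou5f1 libraries that shares 1 estimate of the spread. On chromatin 48 of 367 intron inserts were higher than gDNA and 2 lower, against a background of 3.56% higher and 1.39% lower over 10616 inserts, and in run-on RNA 19 were higher and 2 lower, against 1.37% and 0.631% (edgeR). Median log2 fold changes were 0.47 and 0.30, against -0.09 and -0.04 for all inserts. They were 0.38 and 0.24 for inserts losing 70 to 94 nt, and 0.41 and 0.29 for 120 nt or more. The 269 other intron inserts were below the gDNA minimum. Without screen 2 the chromatin count was 12, with 5 higher and 7 lower, and without screen 4 it was 27. Without screen 4, and also without screen 5, no intron insert was called in run-on RNA, where 71 were higher (19.3%) and 15 lower (4.09%) at an unadjusted p under 0.05 in all libraries, against 10.7% and 7.20% of all inserts, and DESeq2 called 47 higher and 13 lower. Without screen 1 or 2 it was 11 each.

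Among the called inserts, sequence_12447, which loses 115 nt, was high in both kinds of RNA. Its level was 2.78 and 1.85 on chromatin and 3.21 and 3.18 in run-on RNA, and 86.8% and 91.6% of its chromatin reads and 98.8% and 70.7% of its run-on reads were spliced. The log2 fold change was 2.57 (SE 0.37, adjusted p = 0.00515) on chromatin and 2.90 (SE 0.41, adjusted p = 0.0123) in run-on RNA by edgeR. The chromatin call was lost without screen 2 (adjusted p = 0.0562) and the run-on call without screen 4 or 5 (adjusted p = 0.171 and 0.0697). Both directions turned on unspliced reads alone, to -0.39 and -1.10. For sequence_12351 the chromatin level was 3.03 and 2.47, with 66.9% and 69.1% of reads spliced (2.79, SE 0.37, adjusted p = 0.00413, edgeR), and on unspliced reads alone it was no longer called (1.12, adjusted p = 0.17).

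An insert with little splicing also stood high in nascent RNA: sequence_00579, which loses 106 nt, had 9832 and 9184 run-on reads and levels of 4.01 and 2.64 (log2 fold change 3.13, SE 0.50, adjusted p = 0.0146, edgeR). Its spliced share in Pou5f1 total RNA was 12.4%, 2.37%, 2.98% and 7.88%. The call was lost without screen 4 or 5 (adjusted p = 0.321 and 0.0644). On the low side, sequence_01639, which loses 106 nt, had no read in either chromatin library against 186 and 146 gDNA reads in screens 2 and 3. Allowing for 3 read pairs over both libraries, it was at least 61-fold lower on chromatin than in gDNA (adjusted p = 0.00546, edgeR), and at least 28.4-fold and 32.7-fold lower with chromatin screen 2 or 3 left out. By contrast sequence_12746 had 88 and 184 chromatin reads against 1518 and 1226 gDNA reads (-3.05, SE 0.75, adjusted p = 0.0381), a call that was lost without screen 1, 2 or 4 (adjusted p = 0.0657, 0.276 and 0.0728). In run-on RNA sequence_12280, which loses 95 nt, had 24 and 20 reads against 366 and 792 gDNA reads (-5.06, SE 0.73, adjusted p = 0.0123), and sequence_04926 was also lower (-4.01, SE 0.71, adjusted p = 0.0217). Both of these run-on calls were lost without screen 4 or 5, and that of sequence_04926 also without screen 1 (adjusted p from 0.0646 to 0.278, edgeR).

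Steady-state RNA exceeded nascent RNA at the intron inserts. Total RNA was higher than run-on RNA at 47 of 367 and lower at 1, against a background of 4.03% and 0.98% (edgeR), and the median log2 fold change was 0.82, 0.03 for all inserts. By siNT spliced share, 4 of 69 inserts under 1%, 0 of 50 at 1 to 10%, 1 of 59 at 10 to 50%, 7 of 70 at 50 to 90% and 34 of 106 at 90% or more were called higher. At the first of the named inserts, sequence_12280, the total RNA level was 1.93, 0.71, -0.04 and 0.18 in screens 1 to 4, against -4.22 and -5.91 in run-on RNA (5.59, SE 0.77, adjusted p = 0.00451). Its groups lay far apart, but the run-on values rest on 24 and 20 reads. For sequence_12150, which loses 114 nt, the level was 4.87, 2.40, 2.98 and 5.86 in total RNA, against 1.16 and 0.36 in run-on RNA (3.94, SE 0.79, adjusted p = 0.0219, edgeR). Without screen 1, 4 or 5 that call was lost (adjusted p = 0.0648, 0.289 and 0.114).

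The insert called lower, sequence_07901, loses 95 nt and had no spliced read in any library but for 2 reads in siRRP40 culture A. Its level was -1.94, -1.55, -2.84 and -0.96 in total RNA, against 0.67 and 0.30 in run-on RNA (-2.04, SE 0.54, adjusted p = 0.0492, edgeR). All calls of this comparison ended without screen 4, and 7 were left without screen 5, 18 without screen 1 and 73 without screen 3. With library totals 25 were higher and 3 lower, beside a shift of the median of all inserts to -0.34. The comparisons with run-on and with chromatin RNA share the total RNA libraries.

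Against chromatin RNA, 12 of 367 intron inserts were higher in total RNA and 1 lower, against a background of 0.499% and 0.217% (edgeR). The median log2 fold change was 0.77, against 0.15 for all inserts. It was 0.61 for inserts losing 70 to 94 nt and 0.76 for 120 nt or more. For sequence_12753, which loses 111 nt, the level was 2.98, 1.41, 3.34 and 3.03 in total RNA, against -0.53 and 0.75 on chromatin (2.45, SE 0.47, adjusted p = 0.0417), and on unspliced reads alone it was 0.18 and no longer called. The insert without chromatin reads, sequence_01639, had 68, 268, 98 and 3456 total RNA reads and was at least 141-fold higher in total than in chromatin RNA (adjusted p = 0.0306). Most of these reads come from screen 4, which has no chromatin library, and without it the limit is 45.7-fold. Without chromatin screen 2 or 3 it is 65.7-fold and 75.7-fold. In the other direction sequence_13658, which loses 118 nt, had levels between -4.13 and -0.31 in the 4 total RNA screens, against 2.09 and 1.46 on chromatin (-3.24, SE 0.65, adjusted p = 0.0492, edgeR). Without screen 1, 4 or 5 none of the 13 calls was left, without screen 3 it was 6, and without the screen as a block it was 5. In all libraries 121 were higher (33.0%) and 20 lower (5.45%) at an unadjusted p under 0.05, against 13.0% and 6.18% of all inserts, and DESeq2 called 73 higher and 10 lower.

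The spliced share was far higher in steady-state RNA than in nascent or chromatin-associated RNA. Over 457 intron inserts with at least 20 reads in all 17 RNA libraries, the median share was 55.5% ± 13.2 in Pou5f1 total RNA (SD, n = 4), against 15.4% ± 2.62 on chromatin and 14.8% ± 7.07 in run-on RNA (n = 2 each). Over all inserts with enough reads in a kind, the medians of single libraries were 55.9%, 36.0%, 49.5% and 67.6% in total RNA (543 inserts), against 10.2% and 9.81% on chromatin (548 inserts) and 13.1% and 6.46% in run-on RNA (596 inserts). Every total RNA library exceeded all 4 others. Between 113 and 167 of the 457 inserts were over 90% spliced in a total RNA library, against 44 and 35 on chromatin and 45 and 24 in run-on RNA. At 165 of 548 inserts on chromatin and 82 of 596 in run-on RNA no read was spliced.

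Inserts that were almost wholly spliced at steady state were mostly spliced already in nascent RNA. The 132 inserts with a mean share of 90% or more in Pou5f1 total RNA had median shares of 71.4% and 72.8% on chromatin and 73.4% and 56.1% in run-on RNA. The 110 inserts at 50 to 90% had 30.7% and 28.8% on chromatin and 42.2% and 19.7% in run-on RNA. Mean shares of single inserts in total RNA ranked much as in run-on RNA (Spearman's rho 0.873, 536 inserts) and on chromatin (0.909, 507 inserts). These points share the insert sequences and the reference set.

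Insert by insert, the share was higher in every total RNA library than in every run-on library at 258 of 523 intron inserts (49.3%), against a background of 44.1% over 1843 inserts, and lower at 2, against 0.977%. Set against chromatin RNA it was higher in every library at 235 of 497 (47.3%, background 46%) and lower at 2 (background 0.4%). The fit of spliced and unspliced counts called 4 of 523 higher and 0 lower against run-on RNA (background 0.271% and 0%) and 1 of 497 higher and 0 lower against chromatin RNA (background 0.171% and 0%; edgeR). At an unadjusted p under 0.05, 179 were higher (34.2%, all inserts 30.9%) and 0 lower than in run-on RNA. Against chromatin RNA, 132 were higher (26.6%, all inserts 26.3%) and 2 lower. These shares of the intron inserts were near those of all inserts with a spliced reference. With limma on log ratios 117 and 12 were called higher and none lower, and the share over all inserts is not given for these counts. Median log2 fold changes of the spliced to unspliced ratio, with inserts at 0 set to the limit of 3 read pairs, were 3.28 against run-on RNA and 3.35 against chromatin RNA.

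Among the called inserts, sequence_12331, which loses 108 nt, was 99.1%, 99.7%, 98.3% and 99.3% spliced in total RNA, against 65.1% and 47.5% in run-on RNA (log2 fold change of the ratio 6.61, SE 1.03, adjusted p = 0.0379, edgeR). The groups do not overlap. A rarely spliced insert, sequence_03644, which loses 110 nt, was 1.26%, 1.14%, 0.690% and 0.964% spliced in total RNA, against 0 of 11964 and 0 of 13124 reads in run-on RNA, where 3 read pairs would be 0.0239%. That is at least 39.9-fold higher (adjusted p = 0.0379), and against chromatin RNA, also without a spliced read, at least 17.2-fold higher (adjusted p = 0.0364). With run-on library 1 or 2 left out the first limit is 20.8-fold and 19.0-fold, and with chromatin screen 2 or 3 left out the second is 7.04-fold and 10.1-fold. Leaving out any 1 of the 6 libraries ended the 4 run-on calls. For chromatin RNA 18 inserts were called without total RNA screen 2 and 0 without any other library. The insert with the lowest p for a lower share was not called in either comparison (sequence_13500, adjusted p = 0.16; sequence_12402, adjusted p = 0.109).

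The inserts with introns also stood high at 14Rik, on another chromosome and in cells without the reporter. Over 544 inserts with enough gDNA reads the median level was 1.43, 1.14 and 1.45 in screens 1 to 3 (1.34 ± 0.18, SD, n = 3), and inserts without a spliced reference had -0.21 ± 0.04, a gap of 1.55 ± 0.21. Of the 544, 284 were higher than gDNA and 36 lower, against a background of 24.5% and 18.5% over 14755 inserts (edgeR), and the median log2 fold change was 1.40, -0.08 for all inserts. The other 92 had too few gDNA reads. Without screen 3 the count was 204 higher and 8 lower. With library totals the median of all inserts shifted to -0.79 and the split was 209 higher and 67 lower, with a median of 0.69 for the intron inserts.

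By their share in Pou5f1 total RNA, the median level at 14Rik was 0.72 for 40 inserts under 1%, 0.65 for 103 at 1 to 10%, 1.13 for 102 at 10 to 50%, 1.95 for 109 at 50 to 90% and 2.28 ± 0.27 for 122 at 90% or more. The level was thus highest at the inserts with the highest share at the other locus. Counting unspliced reads alone, the same groups had 0.67, 0.51, 0.09, -0.09 and -0.52 ± 0.13. For the highest insert, sequence_12112, which loses 102 nt, the level was 4.05, 5.58 and 5.28, and 90.9%, 92.8% and 93.9% of reads were spliced (4.97, SE 0.43, adjusted p = 0.000708, edgeR). Next, sequence_12351 stood at 3.51, 5.46 and 5.64 (4.89, SE 0.50, adjusted p = 0.000709), and on unspliced reads alone neither was called (1.36 and 0.74, adjusted p = 0.196 and 0.255). On the low side, sequence_07720 had 36, 0 and 0 RNA reads against 1072, 142 and 122 gDNA reads (adjusted p = 0.0153), a call lost without screen 3 (adjusted p = 0.0768), and sequence_11274 had 272, 0 and 0 against 1198, 234 and 92 (adjusted p = 0.0461), a call lost without screen 2 or 3 (adjusted p = 0.12 and 0.173, edgeR) and without the screen as a block.

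Set directly against each other, the loci differed at few of these inserts. The level was higher at 14Rik than at Pou5f1 in 5 of 338 intron inserts and lower in 7, against a background of 1.03% and 1.21% over 10076 inserts (edgeR, interaction of RNA over gDNA with locus), and the median log2 difference was -0.08, against -0.05 for all inserts. At an unadjusted p under 0.05, 30 were higher (8.88%) and 46 lower (13.6%), against 7.71% and 9.71% of all inserts. For sequence_02435, which loses 102 nt, the level was 2.08, 1.88 and 1.62 at 14Rik, against -1.47, -1.64, -1.22 and -3.12 at Pou5f1 (3.53, SE 0.80, adjusted p = 0.0442). For sequence_13678, which loses 109 nt, it was 1.63, 1.00 and 1.21 at 14Rik, against -1.74, -1.71, -2.23 and -1.91 at Pou5f1 (2.99, SE 0.61, adjusted p = 0.0327). In both inserts all 14Rik screens lay above 0 and all Pou5f1 screens below.

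Lower at 14Rik were sequence_12753, with levels of 0.23, -1.28 and -0.72 at 14Rik, against 2.98, 1.41, 3.34 and 3.03 at Pou5f1 (-3.50, SE 0.59, adjusted p = 0.0141), and sequence_09085, with -5.99, -3.45 and -5.21 at 14Rik, against -2.57, -1.37, -1.46 and -2.29 at Pou5f1 (-3.25, SE 0.77, adjusted p = 0.0479, edgeR). The groups of neither overlap. None of the 12 calls was left without 14Rik screen 3 or Pou5f1 screen 4, and 2 were left without the screen as a block, 2 without Pou5f1 screen 1, 3 without Pou5f1 screen 2, and 6 each without 14Rik screen 2 or Pou5f1 screen 3. The loci also differ in cells, allele and primer, which cannot be told apart.

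The median spliced share did not differ between the loci beyond the wide spread between Pou5f1 screens, while the inserts spliced almost completely were fewer at 14Rik. Over the 457 inserts with reads in every library the median was 56.0% ± 6.04 at 14Rik (SD, n = 3), against 55.5% ± 13.2 at Pou5f1 (n = 4). Single screens ran from 51.8% to 62.9% at 14Rik and from 40.2% to 71.2% at Pou5f1. In siNT cultures, at the Pou5f1 site, the median was 70.3%. The Pou5f1 median also depends on the read minimum, as given above. Between 61 and 96 of them were over 90% spliced in a 14Rik library, against 113 to 167 in a Pou5f1 total RNA library. The share was higher in every 14Rik library than in every Pou5f1 library at 54 of 501 inserts (10.8%, background 11%) and lower at 112 (22.4%, background 20.9%), near the shares of all inserts with a spliced reference. The fit called 2 higher and 18 lower (background 0.341% and 2.79%, edgeR), and the median log2 fold change of the ratio, with inserts at 0 set to the limit, was -1.09. Across 509 inserts the mean shares at the loci ranked alike (Spearman's rho 0.833), and the points share the insert sequences.

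Some inserts were spliced far more at 1 locus than at the other. For sequence_13746, which loses 109 nt, 95.2%, 59.0% and 49.6% of reads were spliced at 14Rik, against none of 46, 1110, 3208 and 1482 reads at Pou5f1, where 3 read pairs would be 0.103%. That is at least 715-fold higher at 14Rik (adjusted p = 0.0466), or 323-fold without Pou5f1 screen 3. Chromatin, run-on and siRRP40 libraries at Pou5f1 had no spliced read of it, but siNT cultures A and B had 94 and 12, which are 0.715% and 0.0719% of its reads there, and culture C had none. So spliced reads of sequence_13746 were counted at Pou5f1 too, at a low share and in these 2 cultures only, and the limit holds for the untreated screens alone. For sequence_03499, which loses 113 nt, the share was 22.6%, 49.0% and 50.6% at 14Rik, against 5.26%, 0.852%, 0.419% and 0.632% at Pou5f1 (log2 fold change of the ratio 6.08, SE 1.15, adjusted p = 0.0338, edgeR).

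The reverse held for sequence_00685, which loses 106 nt and had no spliced read among 1084, 6558 and 4262 at 14Rik, against 15.5%, 15.1%, 6.84% and 35.0% at Pou5f1, at least 557-fold lower by the share over all 4 screens, 28.1% (adjusted p = 0.0249). The limit is 252-fold without Pou5f1 screen 4, which holds 4812 of the 5602 spliced reads, and 250-fold and 358-fold without 14Rik screen 2 or 3. Its share at Pou5f1 was not stable between sets of cultures, with 0.0915%, 0.156% and 4.52% in siRRP40 cultures and 0.224%, 0.141% and 0.0443% in siNT cultures. For sequence_12215, which loses 116 nt, the share was 84.3%, 84.4% and 89.8% at 14Rik, against 100%, 100%, 100% and 99.7% at Pou5f1 (-9.07, SE 1.71, adjusted p = 0.0338, edgeR). All 20 calls of the spliced share were lost without Pou5f1 screen 1 or any 1 of the 14Rik screens, and 13 were left without Pou5f1 screen 2. Primers 287 nt (14Rik) and 221 nt (Pou5f1) downstream read cDNA of different length, and its part in the share was not tested.

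In siNT cultures, which were set up apart from the untreated screens, 216 of 358 intron inserts were higher than gDNA and 55 lower, against a background of 33.9% and 30.8% over 10406 inserts, and the median log2 fold change was 1.25 against 0.02 for all inserts (edgeR). With library totals the median of all inserts shifted to -0.79 and the split to 161 higher and 94 lower. The highest, sequence_12316, had levels of 6.52, 6.09 and 7.54 in cultures A to C, with 99.8%, 100% and 99.8% of reads spliced (6.72, SE 0.28, adjusted p = 9.91e-11, edgeR). Its unspliced reads alone were lower than gDNA (-2.70, adjusted p = 0.00584). Next was sequence_12351, at 4.93, 5.93 and 5.42 (5.43, SE 0.24, adjusted p = 8.44e-11). The low end was held by sequence_15342, which loses 104 nt, with 42, 24 and 186 RNA reads against 344, 586 and 428 gDNA reads (-5.69, SE 0.73, adjusted p = 8.49e-06), and by sequence_08818 (-4.32, SE 0.32, adjusted p = 1.8e-08, edgeR), which was low in untreated cells too.

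After siRRP40 the intron inserts also stood above the typical insert, at a slightly lower median. Over 333 inserts tested in both, the median level was 1.02, 0.90 and 1.02 in siRRP40 cultures (0.98 ± 0.07, SD, n = 3), against 1.11, 1.22 and 1.26 in siNT cultures (1.20 ± 0.08). The groups do not overlap. The gap to inserts without a spliced reference was 1.10 ± 0.06 in siRRP40 and 1.29 ± 0.09 in siNT cultures. The median log2 difference of single inserts was -0.19, against -0.00 for all inserts tested, and with library totals it was -0.07, against 0.12 for all inserts. Counted on unspliced reads alone, the median level was -0.66 ± 0.05 in siRRP40 and -0.62 ± 0.05 in siNT cultures.

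Only sequence_12853, which loses 105 nt, passed the test. Its level was 2.17, 2.39 and 2.83 after siRRP40, against 5.20, 4.69 and 3.94 after siNT (-2.15, SE 0.33, adjusted p = 0.0401, edgeR), and its groups do not overlap. It was the single insert called among the 9812 tested, against a background of 0% higher and 0.0102% lower, and no intron insert was called higher. At an unadjusted p under 0.05, 6 of the 333 were higher (1.80%) and 44 lower (13.2%), against 4.16% and 4.44% of all inserts, and DESeq2 called 0 higher and 5 lower. The call was lost without siNT culture A or B or siRRP40 culture A or B (adjusted p = 0.0891, 0.166, 0.308 and 0.0701), with library totals (adjusted p = 0.059) and without the culture as a block (adjusted p = 0.618). The insert nearest to a rise, the low sequence_08818, was not called (1.42, SE 0.45, adjusted p = 0.416, edgeR). Its level was -2.23, -3.85 and -2.62 after siRRP40, against -4.41, -4.19 and -4.31 after siNT.

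The spliced share was slightly lower after siRRP40, as it was for all inserts with a spliced reference, whose median was 44.3% ± 1.59 in siRRP40 and 49.7% ± 3.27 in siNT cultures (SD, n = 3 each). Over the 457 inserts with reads in every library the median was 65.7% ± 0.765 in siRRP40 cultures, against 70.3% ± 3.24 in siNT cultures (SD, n = 3 each), and 166 to 170 inserts were over 90% spliced in a siRRP40 library, against 174 to 184 in a siNT library. Over all inserts with enough reads in a group, single cultures had 57.6%, 61.2% and 57.1% after siRRP40 (566 inserts), against 59.6%, 64.6% and 66.5% after siNT (577 inserts), and these overlap. The share was lower in every siRRP40 culture than in every siNT culture at 58 of 479 inserts (12.1%), against a background of 10.9%, and higher at 13 (2.71%), against 3.25%. These shares are near those of all inserts with a spliced reference.

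No single insert was called for its share in either direction, by edgeR (background 0% higher and 0% lower) or by limma on log ratios, and at an unadjusted p under 0.05 edgeR gave 7 higher (1.46%) and 30 lower (6.26%), against 1.59% and 5.27% of all inserts tested. The inserts with the lowest p were sequence_12463, with 88.9%, 87.1% and 90.2% after siRRP40, against 98.8%, 98.1% and 99.7% after siNT (log2 fold change of the ratio -3.69, adjusted p = 0.342), and sequence_00889, with 1.70%, 5.18% and 6.40% after siRRP40, against 0.408%, 0.275% and 0.293% after siNT (3.65, adjusted p = 0.285, edgeR). The groups of neither overlap, and neither passed the test.

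In the sort of cells with the Pou5f1 library, inserts with introns of 95 to 119 nt were enriched toward bin 6. They took 1.63%, 2.19%, 2.68%, 3.08%, 4.12% and 9.24% of the reads of bins 1 to 6 in sort screen 1, and 1.45%, 1.72%, 2.80%, 2.34%, 3.59% and 8.49% in sort screen 2. Unsorted cells held 3.14% to 3.33%. The mean bin of an insert weights the bins by its share of each bin's reads. Over 348 intron inserts its median was 3.96 and 4.07 in the 2 screens, against 3.09 and 3.23 for 8864 inserts without a spliced reference. A mean bin over 5 was reached by 31.3% and 32.5% of the intron inserts, against 11.3% and 12.7% of the others, and a mean bin under 2 by 7.76% and 8.91%, against 21.2% and 19.0%.

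The slope of abundance over the bins rose in 156 of 348 intron inserts and fell in 22, against a background of 28.4% and 13% over 10229 inserts, with a median of 1.63 log2 units per bin against 0.38 for all inserts (edgeR). With library totals the median of all inserts shifted to -0.37 and the split to 132 higher and 45 lower. Without sort screen 2, 93 rose and 3 fell. Among other length classes the median mean bin was 4.21 and 4.40 for 120 nt or more, 3.94 and 3.93 for 70 to 94 nt and 3.42 and 3.51 for under 70 nt.

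The mean bin was higher where the spliced share was 50% or more, and below that it did not rise with the share. By siNT share, the median mean bin in screens 1 and 2 was 3.47 and 3.41 under 1%, 3.24 and 3.31 at 1 to 10%, 3.25 and 3.43 at 10 to 50%, 4.27 and 4.36 at 50 to 90%, and 5.50 and 5.53 at 90% or more. The slope rose in 22 of 72 (30.6%), 12 of 48 (25%) and 17 of 65 (26.2%) inserts of the groups under 50%, near the 28.4% of all inserts. At 50 to 90% it rose in 35 of 68 (51.5%) and at 90% or more in 67 of 86 (77.9%). For sequence_13813, which loses 103 nt, sort screen 1 had 6 reads in bin 5 and 896 in bin 6 and none elsewhere, and screen 2 had 16 and 2936 (slope 4.78, SE 0.53, adjusted p = 6.02e-08, edgeR). The pattern of sequence_12110, which loses 105 nt, was alike, with 746 and 2440 reads in bin 6 (4.50, SE 0.53, adjusted p = 1.13e-07, edgeR). Their shares and levels differed. In siNT cultures A to C sequence_13813 was 66.8%, 86.1% and 74.6% spliced, at levels of 0.58, -0.02 and 0.89. There sequence_12110 was 99.57%, 99.95% and 99.93% spliced, at levels of 4.06, 4.57 and 5.70.

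At the low end, sequence_12746, which loses 112 nt and was low on chromatin, had 64, 202, 90, 0, 0 and 0 reads in bins 1 to 6 of sort screen 1 and 852, 1800, 298, 2, 0 and 0 in screen 2, a mean bin of 1.90 and 1.64 (-2.82, SE 0.71, adjusted p = 0.00166). For sequence_11010, which also loses 112 nt, the mean bin was 1.43 and 1.83 (-1.08, SE 0.38, adjusted p = 0.0218, edgeR). Both of these calls were lost without sort screen 2 (adjusted p = 0.134 and 0.108).

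The ranking of the intron inserts was closer between replicates of some kinds of RNA than of others. Spearman's rho of the level between replicates was 0.910 to 0.917 in siRRP40 cultures, 0.900 to 0.916 in siNT cultures, 0.712 to 0.859 at 14Rik and 0.779 to 0.814 in Pou5f1 total RNA, but 0.512 on chromatin and 0.379 in run-on RNA. The shares were closer, with 0.952 to 0.964 in siRRP40 and 0.959 to 0.971 in siNT cultures, 0.835 to 0.908 at 14Rik, 0.855 to 0.922 in Pou5f1 total RNA, 0.782 on chromatin and 0.874 in run-on RNA. These correlations are across inserts, which are not independent replicates.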

How the data were processed

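Reads per reference were deposited by the authors as read counts, 1 table per library, for 46 of 58 samples (17 RNA and 29 DNA libraries), and the other 12 samples were not analysed here. Per the submitters' processing notes, cutadapt 1.14 and Bowtie2 2.3.4.3 were among the tools used. The making of the spliced references was not given in the sources used here. Every deposited count is even, as when both ends of a pair are counted, so limits for a count of 0 use 3 read pairs (6 reads) over the group and cover counting error only. The labels name no molecular identifiers, so PCR reads are not independent molecules. The RNA libraries held 2665226 to 94099800 reads on inserts.

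An insert's RNA is the sum of its unspliced and spliced references. For all inserts, counts went into edgeR 4.0.16 (R 4.3.3; quasi-likelihood test, robust, TMM scaling) with the screen or culture as a block, and p-values were adjusted over all inserts tested by Benjamini-Hochberg, with a threshold of 0.05. Inserts needed 50 reads in every gDNA library of a comparison, 20 reads in every RNA library for a spliced share, and for the sort 50 reads in each unsorted library and, per screen, 100 reads summed over the 6 bins. The chromatin, run-on and total RNA contrasts came from a fit of 13 untreated Pou5f1 libraries. Levels carry a prior count of 2. Spliced shares were tested without the block, as the change of the spliced to unspliced ratio between groups. The fits were tested on simulated counts before use.

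RNA and gDNA libraries of the same number come from the same screen, per the labels. Their deviations from the group means correlated at 0.363 to 0.564 at Pou5f1, 0.324 to 0.347 in siNT, 0.358 to 0.386 in siRRP40 and 0.038 to 0.339 at 14Rik. Libraries of unlike number reached at most 0.0714 at Pou5f1, -0.15 in siNT and -0.155 in siRRP40. At 14Rik they reached 0.043, above the lowest value of the same number there. Nothing in the labels says how far screens differ in their cells, so p-values measure the spread between these libraries. Named inserts are the 2 per direction with the largest change among those called, with at least 200 reads on average and the same direction in every screen; where none was called, the one with the lowest p is named, and others are named by their read number. Alternatives were library totals, DESeq2 1.42.0, limma 3.58.1 for shares, other read minimums, read pairs, unspliced reads alone, no block, no robust step and leaving out each screen or culture, or for shares each library. The inserts and lists were chosen with earlier results of these data known.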

Additional observations from a re-analysis of the deposited data

Results flagged for a closer look

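In Pou5f1 total RNA a single screen stood far from the other 3 in 5 of the 63 groups of 4 values examined by Dixon's criterion. Its usual chance rate of about 1 in 20 does not hold for shares at 0% or 100%. There 3 nearly equal values let any departure pass, so the 5 groups cannot be set against that rate. The level of sequence_08818 was -9.22 in screen 3, where it had no read, against -3.76 to -2.90 in the others. The spliced share of sequence_13678 was 36.0% in 1 screen and 0% in the others, and that of sequence_09085 was 23.3% in 1 screen and 0% in the others. For sequence_03499 it was 5.26% in screen 1, against 0.419% to 0.852%, and for sequence_12215 it was 99.7% in screen 4, against 100%.

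Effects differed between the loci by the test of the difference itself (edgeR) at 4 named inserts for the level, with log2 differences of 14Rik over Pou5f1 of 3.53 (sequence_02435), 2.99 (sequence_13678), -3.50 (sequence_12753) and -3.25 (sequence_09085). For the spliced to unspliced ratio they were 14.99 (sequence_13746), 6.08 (sequence_03499), -12.26 (sequence_00685) and -9.07 (sequence_12215). The values of sequence_13746 and sequence_00685 are fitted against libraries without a spliced read and are not bounds. Between siRRP40 and siNT cultures the level of sequence_12853 differed by -2.15.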

How the results depend on the processing

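Apart from screens, cultures or libraries left out, the counts of intron inserts called moved by over 1.5 times as follows, with the cause not tested except where fewer inserts were tested. For the alternatives, here and above, the share called over all inserts is not given. Their counts alone therefore show nothing particular to the intron inserts. With 200 gDNA reads or more, fewer inserts were tested and 61 were called in Pou5f1 total RNA (main 211), 29 on chromatin (50), 25 for total against run-on RNA (48), 3 between the loci (12), 140 in siNT (271) and 0 for siRRP40 against siNT (1). With 20 gDNA reads or more it was 8 for total against chromatin RNA (13) and 0 for siRRP40. DESeq2 called 91 on chromatin, 60 in run-on RNA (21), 110 for total against run-on RNA, 83 for total against chromatin RNA, 41 between the loci and 5 for siRRP40. Library totals gave 28 for total against run-on RNA and 0 for siRRP40. On unspliced reads alone there were 18 on chromatin, 11 in run-on RNA, 29 for total against run-on RNA, 155 at 14Rik (320) and 0 for siRRP40. Without the robust step, a setting added after seeing the data, 5 were called for total against chromatin RNA and 0 for siRRP40, for the share against run-on RNA (4) and for the share against chromatin RNA (1). For the shares, limma called 117 against run-on RNA, 12 against chromatin RNA and 57 between the loci (20). Read pairs gave 28 and 27 for the share against run-on and chromatin RNA, and a minimum of 50 reads gave 0 against chromatin RNA.

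Without the replicate block, 178 intron inserts were called in Pou5f1 total RNA, 34 on chromatin, 20 in run-on RNA, 53 for total against run-on RNA, 5 for total against chromatin RNA, 305 at 14Rik, 2 between the loci, 246 in siNT, 0 for siRRP40 against siNT and 185 in the sort (178). With the culture letter as a replicate block in limma, the share after siRRP40 gave 0 calls.

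For levels and the sort, a screen or culture was left out with all its libraries. Counts then ran from 175 to 215 in Pou5f1 total RNA, 12 to 43 on chromatin, 0 to 22 in run-on RNA, 0 to 73 for total against run-on RNA, 0 to 10 for total against chromatin RNA, 212 to 341 at 14Rik, 0 to 8 between the loci, 257 to 276 in siNT, 0 to 1 for siRRP40 and 96 to 132 in the sort. For shares, with single libraries left out, they were 0 to 0 against run-on RNA, 0 to 18 against chromatin RNA, 0 to 25 between the loci and 0 to 0 for siRRP40.

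Median levels with library totals were 0.46 in Pou5f1 total RNA, 0.23 on chromatin, 0.17 in run-on RNA, 0.63 at 14Rik, 0.30 in siRRP40 and 0.40 in siNT. With 200 gDNA reads or more they were 0.57 on chromatin, 0.72 in siRRP40 and 0.85 in siNT, and with 20 or more 1.29 in siNT. On unspliced reads alone they turned to -0.55, -0.10, -0.03, -0.11, -0.66 and -0.62 in Pou5f1 total, chromatin, run-on, 14Rik, siRRP40 and siNT RNA. Without single libraries they were 0.96 to 1.09, 0.34 to 0.47, 0.37 to 0.45, 1.28 to 1.44, 0.96 to 1.02 and 1.16 to 1.24 in the same order. Median shares with 200 reads or more were 83.9% in Pou5f1 total RNA, 10.9% on chromatin, 65.0% in siRRP40 and 70.0% in siNT, and with 50 or more 61.3% in siRRP40. Without single libraries they were 47.1% to 57.6% in Pou5f1 total RNA, 9.81% to 10.2% on chromatin, 6.46% to 13.1% in run-on RNA, 47.6% to 53.4% at 14Rik, 57.3% to 59.4% in siRRP40 and 62.1% to 65.6% in siNT.

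On unspliced reads alone the median log2 fold change turned to -0.42 in Pou5f1 total RNA, -0.12 on chromatin, -0.05 in run-on RNA, -0.21 for total against run-on RNA, -0.29 for total against chromatin RNA, -0.03 at 14Rik, 0.31 between the loci and -0.44 in siNT, and single values turned to -5.60 (sequence_13749), -0.56 (sequence_12351), -0.39 and -1.10 (sequence_12447, chromatin and run-on RNA) and -2.70 (sequence_12316). With single screens left out, the median between the loci ran from -0.18 to 0.16, with 0.07 without Pou5f1 screen 1 and 0.16 without screen 4. Limits for inserts without a read, with each library left out, were also added after seeing the data. Depth limits low shares, since 20 reads cannot show a share under a read pair in 20, and the RNA libraries span 2665226 to 94099800 reads.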

Other observations

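The inserts with introns of 95 to 119 nt fall unevenly over the library's numbers, a division chosen after the values were seen. Of the 636, 354 are numbered 12001 to 14000, while the other full blocks of 2000 numbers hold 29 to 58 and the last 461 numbers hold 1. In that range 1207 inserts have a spliced reference and 793 have none. The sources used here do not say what the numbers stand for.

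Spliced shares differed by number in every kind of RNA. The median share of the intron inserts numbered 12001 to 14000 was 33.9% ± 7.04 on chromatin, 26.0% ± 10.6 in run-on RNA (SD, n = 2 each), 72.4% ± 4.20 at 14Rik and 90.8% ± 1.03 in siNT cultures (n = 3 each). The intron inserts with other numbers had 0%, 0.922% ± 0.492, 10.2% ± 3.94 and 9.98% ± 3.52 in the same kinds. Their levels were closer. In Pou5f1 total RNA the median was 1.36 ± 0.34 for 191 inserts in the range and 0.65 ± 0.10 for 179 others (SD, n = 4), and at 14Rik it was 1.54 ± 0.25 and 1.14 ± 0.08 (n = 3). Inserts without a spliced reference went the other way, with -1.32 ± 0.23 in the range and -0.15 ± 0.06 elsewhere in Pou5f1 total RNA, and -0.96 ± 0.17 and -0.16 ± 0.05 at 14Rik. In Pou5f1 total RNA 108 of 191 intron inserts in the range were higher than gDNA and 12 lower, and 74 of 179 others were higher and 17 lower (edgeR). Over all inserts tested 23.1% were higher and 17.5% lower. These values are a description and no test was made of the difference.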
